A study of Mus musculus with 8 samples.

Results

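Wnt ligands, their receptors, the proteins that load and release them, and the antagonists that limit them were followed in mouse embryonic stem (ES) cells in which Zscan4 was knocked down or overexpressed. Members were chosen by gene name among protein-coding genes: the Wnt, Fzd, Sfrp, Dkk, Rspo and Tcf7 families, Axin1, Axin2, Lrp5, Lrp6, Lgr4, Lgr5, Lgr6, Porcn, Wls, Apcdd1, Notum, Nkd1 and Nkd2. Of 58 such genes in the annotation, 48 were measured, among 18821 genes with a value in either arm of the study. The knockdown arm measured 46 of them, the overexpression arm 44, and 42 were measured in both. The rule goes by name and uses no measured value, though earlier results of these data were known when the set was proposed.

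The cells were J1, a mouse ES cell line of strain 12910la per the labels, grown on gelatin in 15% serum with 10 ng/ml LIF. In the KD Zscan4 group the cells carried a pSuper puro plasmid with an shRNA against Zscan4, and in the KD control group, whose genotype label is wild type, a random control shRNA. Cells of the OE Zscan4 group carried pCMV-tag2 with the coding sequence of Zscan4c, and the OE control group, also labelled wild type, is set against them. Each group had 2 libraries of mRNA. All cells were transfected with 1000 ng of plasmid and put under selection 24 h later, with 2 µg/ml puromycin for 7 days in the knockdown arm and 500 µg/ml G418 for 10 days in the overexpression arm. Single clones were then picked, so all 4 groups are clonal, drug-selected lines, and the labels do not say whether the 2 libraries of a group came from separate clones or cultures. The p-values therefore measure the spread between these libraries only. The promoter that drives Zscan4c is not described in the labels beyond the name of the plasmid.

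Libraries held 17392177 to 22381633 reads assigned to genes, and the values are normalised reads, that is reads divided by one factor per library. Zscan4 is a cluster of near-identical genes that marks a rare state of ES cells resembling the 2-cell embryo. The summed level of its 9 measured copies was 97.4 and 136 normalised reads in KD Zscan4 cells, against 3752 and 3336 in KD control cells. It was 5878 and 5311 in OE Zscan4 cells, against 360 and 389 in OE control cells. Both arms thus moved Zscan4 in the direction of their labels. The 2 control groups themselves stood far apart, and because the arms were normalised separately no test was made between them.

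Wnt proteins are secreted, lipid-modified ligands that bind Frizzled receptors together with the co-receptors Lrp5 or Lrp6. Binding stabilises β-catenin, which enters the nucleus and acts with TCF proteins, and several pathway antagonists, among them Axin2, Nkd1, Notum and Dkk1, are themselves switched on by the pathway in many tissues. In mouse ES cells the pathway is known for supporting self-renewal, largely by relieving repression by Tcf7l1.

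Promoter sequence is shown for 3 members whose values carry the findings below: Lgr4 and Wls, called in opposite directions in the 2 arms, and Dkk1, with the lowest fold change in the knockdown. Sequences are from RefSeq on build GRCm38.p6, 5′ to 3′ on the gene's strand and upstream of its RefSeq start; the last 20 bases of the Dkk1 stretch lie inside the gene in GENCODE vM21. They are chr2:109917397-109917646 on the plus strand for Lgr4, chr3:159839400-159839649 on the plus strand for Wls, and chr19:30549646-30549746 on the minus strand for Dkk1. Capitals mark a match to the TCF motif CTTTGA, here read on the opposite strand.
Lgr4: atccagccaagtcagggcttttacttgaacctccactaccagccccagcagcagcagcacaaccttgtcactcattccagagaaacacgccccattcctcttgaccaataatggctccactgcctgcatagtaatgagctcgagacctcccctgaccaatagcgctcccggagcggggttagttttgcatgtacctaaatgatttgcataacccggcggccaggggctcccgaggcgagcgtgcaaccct
Wls: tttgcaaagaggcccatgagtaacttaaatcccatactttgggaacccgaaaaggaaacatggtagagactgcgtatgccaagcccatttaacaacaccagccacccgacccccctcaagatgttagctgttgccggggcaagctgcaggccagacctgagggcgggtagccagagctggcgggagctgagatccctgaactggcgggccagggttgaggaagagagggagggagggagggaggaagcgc
Dkk1: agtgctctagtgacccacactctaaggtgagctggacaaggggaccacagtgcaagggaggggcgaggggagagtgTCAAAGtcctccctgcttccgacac

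Both strands of the 250 bases upstream were searched for CTTTGA and for TGCACAC, a motif known for Zscan4c binding; neither motif contains the other. The Dkk1 window of 250 bases held 2 CTTTGA matches, of which 1 lies in the printed stretch, and the Lgr4 and Wls windows held neither motif. An entry existed for 31 of the 48 members. CTTTGA was present for 4 of these 31 (Dkk1, Fzd1, Wnt11 and Wnt5b). Counted per promoter that is 4 of 36 (11.1%), beside 13.8% of all 32851 promoters. TGCACAC was present for 3 of 31 (Rspo4, Tcf7l2 and Wnt3a). Per promoter it is 3 of 36 (8.33%), beside 3.67% of all promoters. A match describes the letters of these windows only.

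Other members that recur below have no promoter printed. On GRCm38, in GENCODE vM21, they are Porcn (ENSMUSG00000031169) at chrX:8193848-8206525, Notum (ENSMUSG00000042988) at chr11:120653788-120661175, Wnt7b (ENSMUSG00000022382) at chr15:85535437-85582473, Dkk3 (ENSMUSG00000030772) at chr7:112116017-112159057 and Tcf7l1 (ENSMUSG00000055799) at chr6:72626378-72789254, all on the minus strand. Axin2 (ENSMUSG00000000142) lies at chr11:108920349-108950783 on the plus strand. The files give 1 value per gene and library.

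In the knockdown, 19 of the 46 members were lower and 6 were higher in KD Zscan4 than in KD control cells at a false discovery rate of 0.05. Over all 17938 genes 18.5% were called lower and 17.2% higher, 35.7% in all. The median log2 fold change was -0.22 over the members and 0.01 over all genes. In the overexpression, 11 of the 44 members were higher and 11 were lower in OE Zscan4 than in OE control cells. Among all 18292 genes there 22.3% were called higher and 22.1% lower, 44.3% in all. The median was -0.22 over the members and -0.0022 over all genes. Tests were made with limma on log2(normalised reads + 1), a scale that understates the change of genes with few reads, except where 1 library at 0 pulls the mean log value down, as for Wnt3. Libraries of the 2 groups did not overlap for 37 of 46 members in the knockdown, against 67.8% of all genes, and for 35 of 44 in the overexpression, against 71.2% of all genes.

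**Figure D1:**
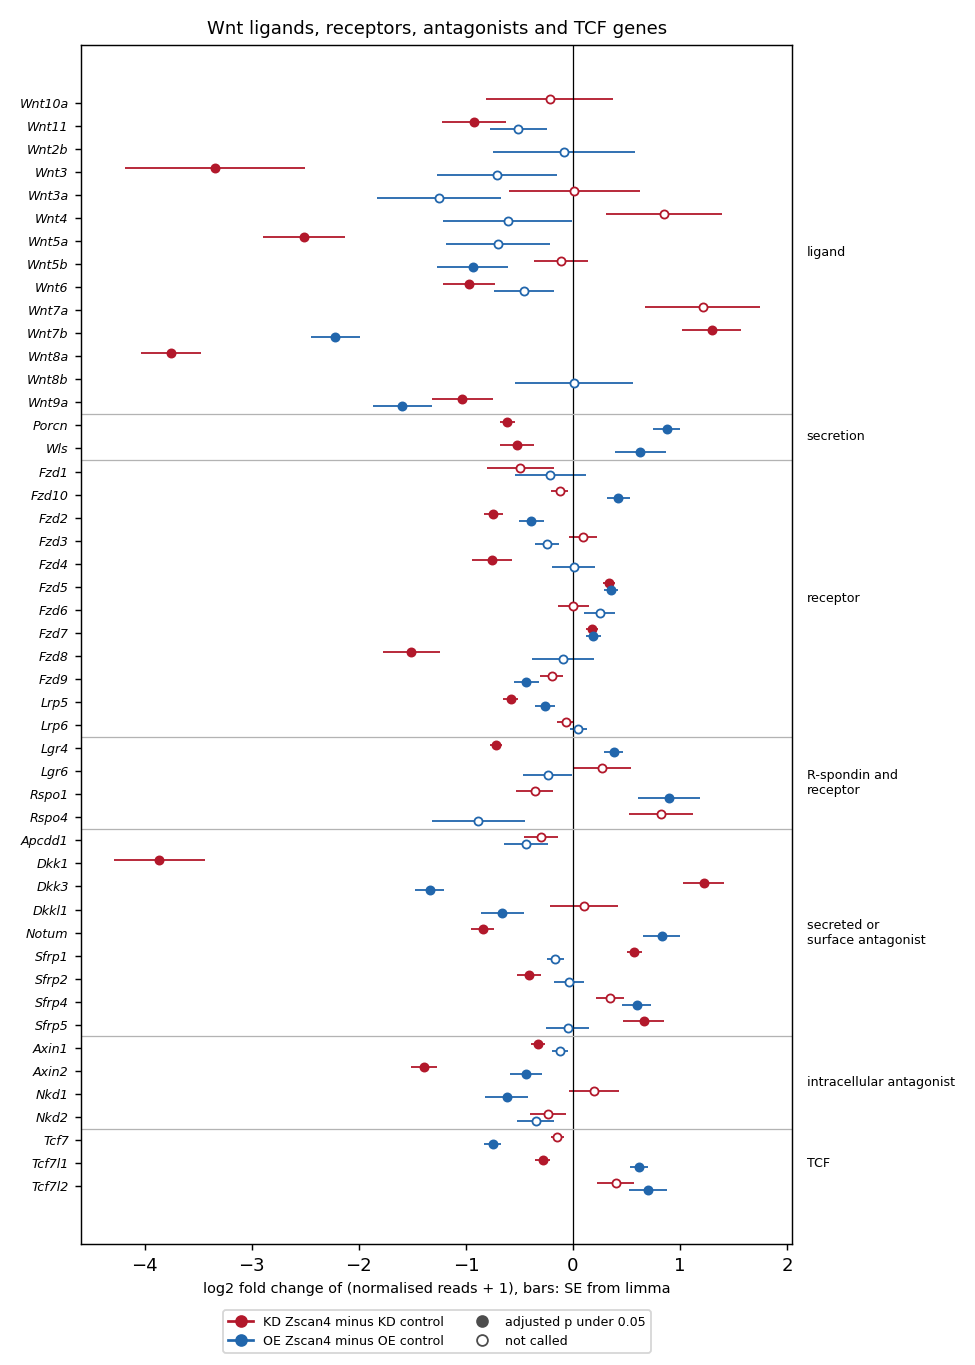
Log2 fold changes of (normalised reads + 1), Zscan4 group minus its control, for every measured member grouped by role, with KD and OE given separately and bars showing the limma standard error. In the knockdown the lowest points are Dkk1, Wnt8a, Wnt3 and Wnt5a and the highest is Wnt7b; in the overexpression the lowest is Wnt7b and the highest is Rspo1.

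Both genes needed to release Wnt ligands were lower in KD Zscan4 and higher in OE Zscan4 cells than in their controls. Porcn, the acyltransferase that attaches the lipid to Wnt proteins, had 617 and 601 normalised reads in KD Zscan4 libraries, against 972 and 893 in KD control libraries. In the overexpression arm Porcn had 517 and 425 in OE Zscan4 libraries, against 288 and 226 in OE control libraries. The groups did not overlap in either arm. The log2 fold change was -0.61 ± 0.07 in the knockdown (SE, limma adjusted p = 4.9e-05) and 0.88 ± 0.13 in the overexpression (adjusted p = 2.6e-05). Wls, the carrier that takes Wnt proteins to the cell surface, had 80.2 and 98.0 normalised reads in KD Zscan4 libraries, against 125 and 130 in KD control libraries. In the other arm Wls had 61.7 and 75.2 in OE Zscan4 libraries, against 51.5 and 37.1 in OE control libraries. Wls passed with smaller margins, at -0.52 ± 0.16 in the knockdown (adjusted p = 0.025) and 0.63 ± 0.24 in the overexpression (adjusted p = 0.041). The Wls call was lost without KD Zscan4 replicate 1 (-0.38), KD control replicate 1 (-0.55) or KD control replicate 2 (-0.50), and in the overexpression without OE Zscan4 replicate 1 (0.77), OE Zscan4 replicate 2 (0.49) or OE control replicate 2 (0.40). DESeq2 did not call Wls in either arm. Its knockdown call was also lost with all 8 libraries in 1 limma fit (-0.52, adjusted p = 0.059). The overexpression call was lost with the median of each chromosome taken off (0.58, limma adjusted p = 0.060).

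Lgr4, a receptor for R-spondins, which raise the number of Frizzled receptors at the cell surface, was likewise lower in KD Zscan4 and higher in OE Zscan4 cells. It had 1010 and 1027 normalised reads in KD Zscan4 libraries, against 1678 and 1673 in KD control libraries. With Zscan4c overexpressed Lgr4 had 1109 and 1155, against 795 and 950 in OE control libraries. All 4 knockdown libraries and all 4 overexpression libraries were separated by group, with log2 fold changes of -0.72 ± 0.06 (adjusted p = 2.6e-06) in KD Zscan4 and 0.38 ± 0.09 (adjusted p = 0.0017) in OE Zscan4 cells, the second at 0.25 and still called without OE control replicate 1. Rspo1, an R-spondin ligand, had 41.5 and 39.5 normalised reads in OE Zscan4 libraries, against 21.0 and 21.6 in OE control libraries, a log2 fold change of 0.89 ± 0.29 (adjusted p = 0.019). In the knockdown Rspo1 had 84.2 and 72.8 in KD Zscan4 libraries, against 95.8 and 106 in KD control libraries, and was not called (-0.36 ± 0.17, adjusted p = 0.13). The Rspo1 call in the overexpression was lost without OE Zscan4 replicate 1 (0.86) or replicate 2 (0.93), and under DESeq2. Rspo4, another R-spondin, had 30.4 and 33.0 in KD Zscan4 libraries, against 17.0 and 18.0 in KD control libraries, just short of the threshold (adjusted p = 0.051). Its OE Zscan4 libraries lay far apart, at 28.7 and 8.46, against 33.4 and 26.8 in OE control libraries, and the groups overlapped. Lgr6, a relative of Lgr4, was called in neither arm, and Lgr5, Rspo2 and Rspo3 were not analysed here.

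The TCF genes, which encode the DNA-binding partners of β-catenin, each had a different pattern. Tcf7l1, known as the main TCF repressor of ES cells, was lower in KD Zscan4 libraries, at 1187 and 1136 normalised reads against 1333 and 1500 in KD control libraries (log2 fold change -0.28 ± 0.07, adjusted p = 0.0075). Tcf7l1 was higher in OE Zscan4 libraries, at 862 and 829 against 551 and 549 in OE control libraries (0.62 ± 0.08, adjusted p = 1.0e-05). Its groups did not overlap, but the knockdown call was lost without KD control replicate 2 (-0.20). Tcf7, known as a TCF activator in ES cells, had 861 and 923 normalised reads in OE Zscan4 libraries, against 1430 and 1574 in OE control libraries, a log2 fold change of -0.75 ± 0.08 (adjusted p = 7.0e-07). In the knockdown Tcf7 had 1036 and 1032 in KD Zscan4 libraries, against 1137 and 1150 in KD control libraries, and was not called (-0.15 ± 0.06, adjusted p = 0.087). Tcf7l2 was higher in OE Zscan4 libraries, at 119 and 113 against 68.7 and 73.1 in OE control libraries (0.70 ± 0.18, adjusted p = 0.0037). Its knockdown values, 121 and 137 in KD Zscan4 libraries against 111 and 85.4 in KD control libraries, were not called (0.40 ± 0.17, adjusted p = 0.090); without KD control replicate 1 they were (0.59).

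**Figure D2:**
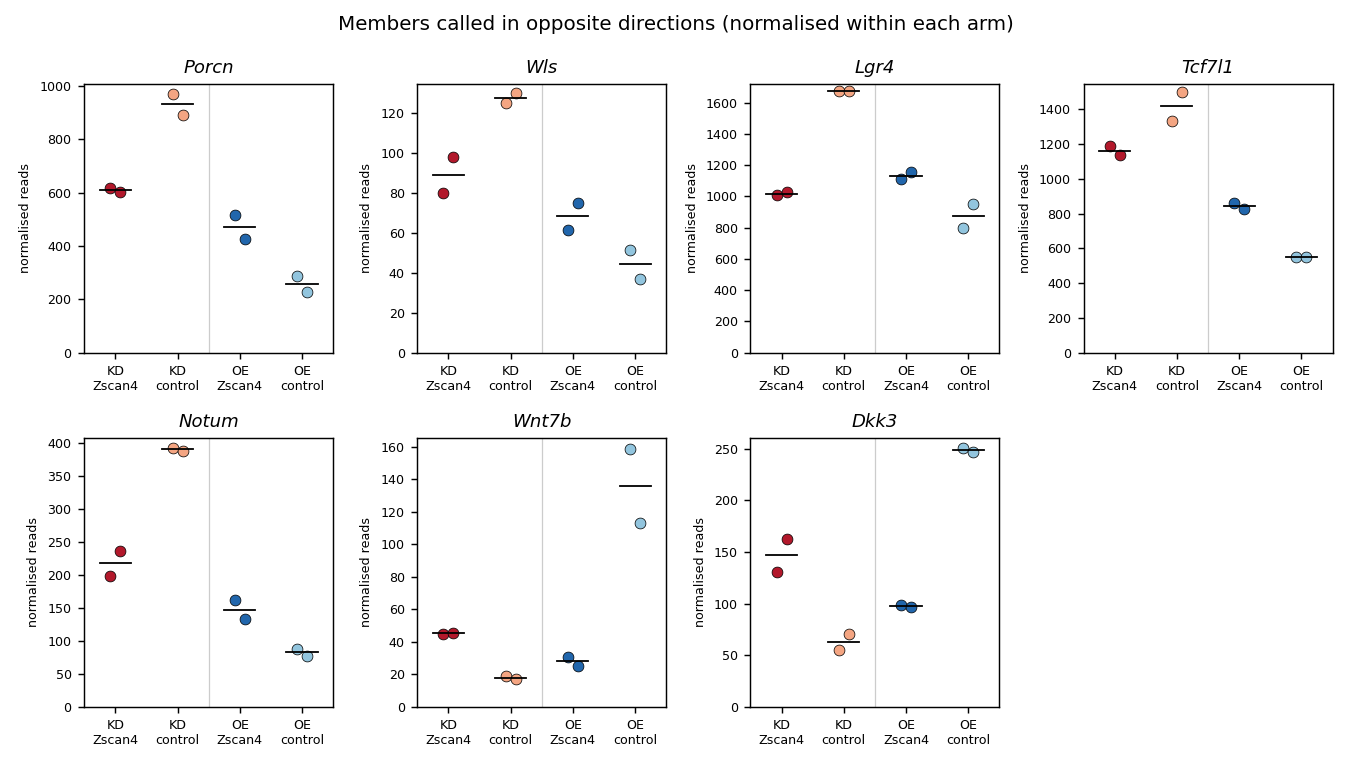
Normalised reads of the 7 members called in opposite directions in the 2 arms, 1 point per library and a line at the group mean, with the Zscan4 group left of its control in each arm and axes starting at 0. Lgr4, Tcf7l1, Notum, Porcn and Wls are lower in KD Zscan4 and higher in OE Zscan4 than in their controls, and Wnt7b and Dkk3 are higher in KD Zscan4 and lower in OE Zscan4 than in theirs.

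Of 12 ligands measured in the knockdown, 6 fell and 1 rose, beside 18.5% and 17.2% of all genes, with a median log2 fold change of -0.57. Wnt8a, a ligand of the primitive streak region in the embryo, had 7.10 and 10.7 normalised reads in KD Zscan4 libraries, against 140 and 121 in KD control libraries. That is 6.81% of the control mean, a log2 fold change of -3.75 ± 0.28 (adjusted p = 1.2e-06). Wnt5a, best known for β-catenin-independent signalling, had 5.07 and 4.85 in KD Zscan4 libraries, against 35.8 and 30.3 in KD control libraries (-2.51 ± 0.38, adjusted p = 0.00034). Wnt3, needed for the primitive streak, had 10.1 and 0 in KD Zscan4 libraries, against 40.3 and 27.0 in KD control libraries (-3.35 ± 0.84, adjusted p = 0.0084). The Wnt3 value leans on the library at 0: it was -1.61 without KD Zscan4 replicate 2 and -5.09 without KD Zscan4 replicate 1, both still called, and the KD Zscan4 mean was 15.1% of the KD control mean. Only 10 reads stood behind the KD Zscan4 group, against 69 in KD control, and DESeq2 did not call Wnt3 (-2.73). No measured gene had fewer than 19 reads in its arm, and Wnt3 reached that only through KD control cells. The same holds for Wnt8a, with 18 reads in KD Zscan4 and 264 in KD control, and for Wnt5a, with 10 and 67. The count of fallen ligands thus includes members that were measured only because they were high in KD control cells. In bulk RNA, fewer cells of a kind and less RNA per cell cannot be told apart, and this holds for every member below as well.

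Another 3 ligands fell in the knockdown by about the same amount. Wnt9a had 19.3 and 17.5 normalised reads in KD Zscan4 libraries, against 40.3 and 37.1 in KD control libraries (log2 fold change -1.03 ± 0.29, adjusted p = 0.014). Wnt6 had 35.5 and 31.1 in KD Zscan4 libraries, against 56.4 and 77.5 in KD control libraries (-0.97 ± 0.24, adjusted p = 0.0081). Wnt11 had 20.3 and 17.5 in KD Zscan4 libraries, against 41.2 and 32.6 in KD control libraries (-0.92 ± 0.30, adjusted p = 0.029). No libraries overlapped between groups for any of the 3, but each call depended on single libraries. Wnt9a was not called without KD control replicate 1 (-0.98) or replicate 2 (-1.09), Wnt6 without KD control replicate 2 (-0.75), and Wnt11 without KD control replicate 1 (-0.76), KD control replicate 2 (-1.09) or KD Zscan4 replicate 2 (-0.82). DESeq2 called none of the 3.

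Wnt7b, a ligand of epithelial and neural tissue, ran the other way. It had 44.7 and 45.6 normalised reads in KD Zscan4 libraries, against 18.8 and 16.8 in KD control libraries, a log2 fold change of 1.30 ± 0.28 (adjusted p = 0.0034). In the overexpression Wnt7b had 30.8 and 25.4 in OE Zscan4 libraries, against 158 and 113 in OE control libraries, a log2 fold change of -2.22 ± 0.23 (adjusted p = 6.7e-07). The OE control libraries were thus the highest of the 8 libraries for Wnt7b, and KD control the lowest, though these levels were set across separately normalised tables. An antisense-strand gene, AU022754, covers 6.61% of the Wnt7b exon bases.

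In the overexpression, 3 of 11 ligands fell and none rose at the threshold, with a median log2 fold change of -0.70. That is 27.3% of the ligands, beside 22.1% of all genes called lower and 44.3% called in either direction. Beside Wnt7b these were Wnt9a and Wnt5b. Wnt9a had 21.3 and 18.8 normalised reads in OE Zscan4 libraries, against 68.7 and 56.7 in OE control libraries (-1.59 ± 0.27, adjusted p = 0.00014), so that this ligand was lower than its control in both arms. Wnt5b had 20.2 and 14.1 in OE Zscan4 libraries, against 31.5 and 35.0 in OE control libraries (-0.93 ± 0.33, adjusted p = 0.029). The Wnt5b call was lost without OE Zscan4 replicate 2 (-0.69), OE control replicate 1 (-1.01) or OE control replicate 2 (-0.86), and under DESeq2. Wnt3, Wnt3a, Wnt5a, Wnt6 and Wnt11 had lower values in both OE Zscan4 libraries than in both OE control libraries without passing. Their log2 fold changes were -0.71, -1.25, -0.70, -0.46 and -0.51. Groups did not overlap for 8 of the 11 ligands, close to the 71.2% of all genes. Wnt3 and Wnt3a lie on chromosome 11, and with its median taken off they stood at -0.36 and -0.91. Wnt3a and Wnt4 were called in neither arm, and Wnt10a, Wnt7a, Wnt2b and Wnt8b, each analysed in 1 arm, were not called there, with group means of at most 9.42 normalised reads. Wnt1, Wnt2, Wnt9b, Wnt10b and Wnt16 were not analysed here.

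**Figure D3:**
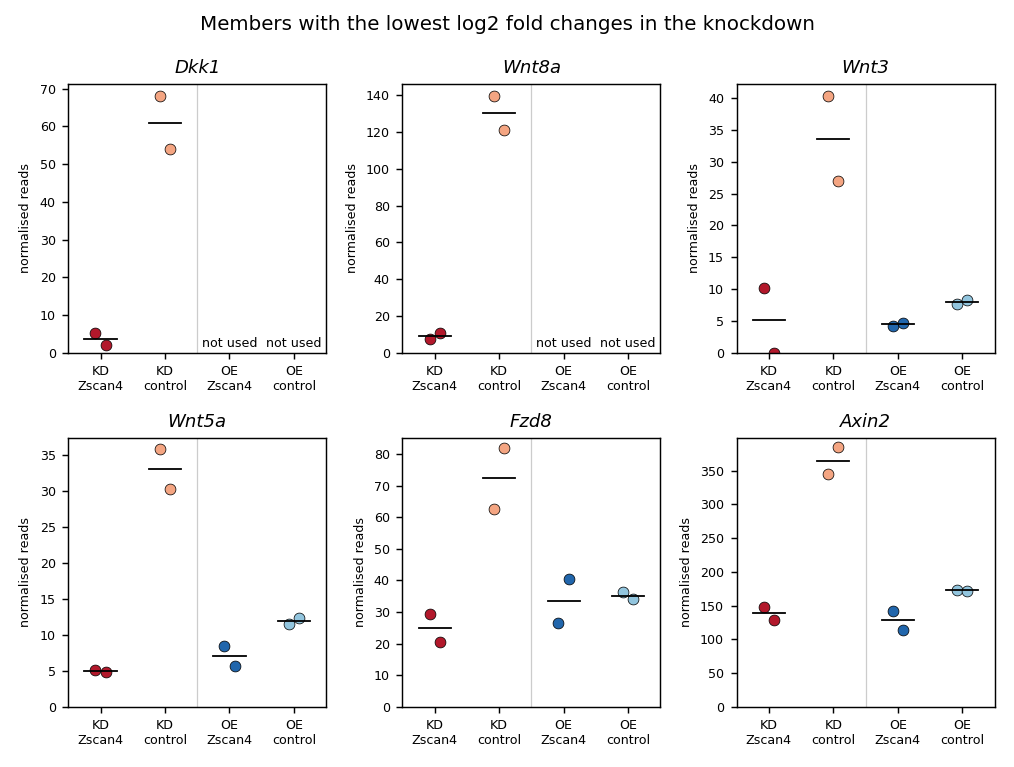
Normalised reads per library for members that were far lower in KD Zscan4 than in KD control cells, 1 point per library and a line at the group mean, the Zscan4 group left of its control and axes starting at 0. Dkk1 and Wnt8a have values in the knockdown arm alone, and their KD Zscan4 points lie at no more than 5.07 and 10.7 normalised reads.

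Among the receptors, Fzd5 and Fzd7 had the highest levels in every group. Per kilobase of exon, Fzd5 stood at 573 ± 26.3 normalised reads in KD Zscan4 and 455 ± 13.8 in KD control cells (SD, n = 2 each), and at 567 ± 27.1 in OE Zscan4 and 443 ± 17.2 in OE control cells. Fzd7 followed with 455 ± 8.28 in KD Zscan4 and 402 ± 6.27 in KD control cells, and with 477 ± 21.4 in OE Zscan4 and 418 ± 5.80 in OE control cells. Next in KD Zscan4 cells came Fzd10 at 147 ± 4.67 and Fzd9 at 93.1 ± 1.09. In OE control cells Fzd9 at 127 ± 5.08 stood above Fzd10 at 94.1 ± 9.87. Fzd2, Lrp5 and Lrp6 lay between 58.8 and 120 per kilobase in all 4 groups, Fzd6 and Fzd3 between 15.3 and 32.3, and Fzd4, Fzd1 and Fzd8 at 14.3 or below. The co-receptors Lrp5 and Lrp6 were close to each other in OE Zscan4 cells, at 66.9 ± 8.52 and 66.3 ± 1.48 per kilobase, within the spread of the libraries.

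**Figure D4:**
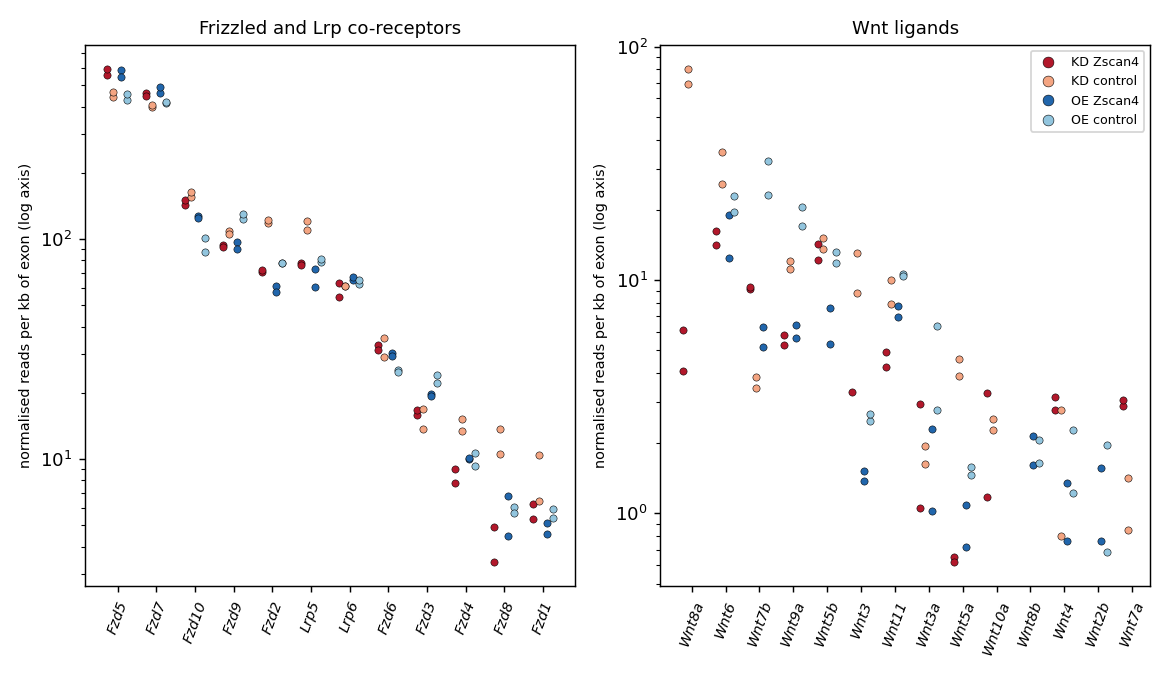
Normalised reads per kilobase of exon (log axis) for each Frizzled and Lrp receptor (left) and each Wnt ligand (right), 1 point per library and the Zscan4 group left of its control in each arm. Fzd5 and Fzd7 lie above the other receptors in all 8 libraries, all ligands lie below them, and the Wnt3 value of 0 in KD Zscan4 replicate 2 cannot be drawn on this axis.

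Of the 12 receptors 4 fell and 2 rose in the knockdown, beside 18.5% and 17.2% of all genes. In the overexpression 3 rose and 3 fell, beside 22.3% and 22.1%. Fzd8 had 29.4 and 20.4 normalised reads in KD Zscan4 libraries, against 62.7 and 82.0 in KD control libraries (log2 fold change -1.51 ± 0.27, adjusted p = 0.00092). Fzd4, known as the receptor for Norrin in the vasculature, had 60.9 and 52.4 in KD Zscan4 libraries, against 90.5 and 102 in KD control libraries (-0.76 ± 0.19, adjusted p = 0.0079). Both pairs of groups were separate, though Fzd4 was lost without KD control replicate 2 (-0.67) and under DESeq2. Fzd2 had 259 and 266 in KD Zscan4 libraries, against 433 and 446 in KD control libraries (-0.74 ± 0.09, adjusted p = 6.2e-05). The co-receptor Lrp5 had 758 and 744 in KD Zscan4 libraries, against 1070 and 1179 in KD control libraries (-0.58 ± 0.07, adjusted p = 5.8e-05). Its partner Lrp6, by contrast, had 743 and 866 in KD Zscan4 libraries, on either side of the KD control values of 841 and 839, and was not called (-0.07 ± 0.08, adjusted p = 0.56).

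Fzd8 and Fzd4 were not called in the overexpression, where the libraries of their groups overlapped and the log2 fold changes were -0.10 ± 0.29 and 0.01 ± 0.20. Lrp6 was not called there either, at 892 and 921 normalised reads in OE Zscan4 libraries, against 858 and 893 in OE control libraries. Receptors that rose with Zscan4c were Fzd5, Fzd7 and Fzd10, the last at 415 and 405 normalised reads in OE Zscan4 libraries, against 283 and 329 in OE control libraries (0.42 ± 0.11, adjusted p = 0.0034). Those that fell were Fzd9 at -0.44 ± 0.12 (adjusted p = 0.0054), Fzd2 at -0.39 ± 0.11 (adjusted p = 0.011) and Lrp5 at -0.26 ± 0.09 (adjusted p = 0.029). Lrp5 was at -0.39 without OE Zscan4 replicate 1. Each of these 3 calls was lost without OE Zscan4 replicate 2, at -0.38, -0.34 and -0.13, and under DESeq2. Fzd1, Fzd3 and Fzd6 were called in neither arm.

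Fzd5 and Fzd7 lie on chromosome 1, whose genes were higher as a body in the KD Zscan4 libraries. The median log2 fold change over 703 genes of chromosome 1 was 0.56, and 91.0% of them were positive, whereas the other 18 autosomes had medians of -0.07 to 0.02. Fzd7 had 2090 and 2037 normalised reads in KD Zscan4 libraries, against 1803 and 1843 in KD control libraries (0.18 ± 0.06, adjusted p = 0.024), and Fzd5 had 3836 and 4093 in KD Zscan4 libraries, against 3077 and 3212 in KD control libraries (0.33 ± 0.05, adjusted p = 0.00056). Relative to the median of each chromosome the direction turned, to -0.38 for Fzd7 and -0.23 for Fzd5. Wnt6, on the same chromosome, went to -1.53 in that reading. Both rises in KD Zscan4 cells were thus smaller than the shift of the chromosome. In the overexpression arm the chromosome 1 median was -0.07, and Fzd5 and Fzd7 were higher in OE Zscan4 cells both before (0.36 and 0.19) and after (0.40 and 0.24) taking off the chromosome median. Fzd7 had 2093 and 2230 normalised reads in OE Zscan4 libraries there, against 1876 and 1913 in OE control libraries. The Fzd7 call was lost without KD Zscan4 replicate 1 (0.16), KD control replicate 1 (0.16) or KD control replicate 2 (0.19), without OE Zscan4 replicate 1 (0.24) or replicate 2 (0.14), and under DESeq2 in both arms. A gene on the opposite strand, Gm38058, covers 17.8% of the Fzd5 exon bases.

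A shift of the same kind touched chromosome 11 in the overexpression, with a median of -0.34 over 1087 genes and 18.9% of them positive, whereas every other autosome had a median of -0.07 to 0.09. The 7 members that lie there are Tcf7, Axin2, Wnt3, Wnt3a, Wnt9a, Fzd2 and Notum. After taking off the chromosome median in OE Zscan4 cells, Tcf7 stood at -0.41 and Wnt9a at -1.25, both still called. Fzd2 stood at -0.04 and Axin2 at -0.09, both no longer called, and Notum at 1.17, further from 0.

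Secreted and surface antagonists held both the deepest fall and some of the clearest rises of the knockdown, with 3 of 9 lower and 3 higher, beside 18.5% and 17.2% of all genes. Dkk1, which blocks Lrp5 and Lrp6, had 5.07 and 1.94 normalised reads in KD Zscan4 libraries, against 68.1 and 53.9 in KD control libraries. These rest on 7 and 124 reads in all, and the KD Zscan4 mean was 5.75% of the KD control mean (log2 fold change -3.86 ± 0.43, adjusted p = 2.7e-05). Like Wnt8a, Wnt3 and Wnt5a, Dkk1 reached the minimum of 19 reads only through KD control cells. Dkk1 was not analysed in the overexpression arm. Dkk3, a Dickkopf relative without clear action on Lrp6, had 131 and 163 normalised reads in KD Zscan4 libraries, against 54.6 and 70.8 in KD control libraries (1.22 ± 0.19, adjusted p = 0.00035). In the overexpression Dkk3 had 98.9 and 96.8 in OE Zscan4 libraries, against 251 and 247 in OE control libraries (-1.34 ± 0.14, adjusted p = 6.6e-07). The groups were separate in both arms, with the lowest Dkk3 values in KD control cells and the highest in OE control cells. Dkkl1, a distant relative first known from testis, had 57.4 and 72.3 in OE Zscan4 libraries, against 114 and 91.7 in OE control libraries (-0.66 ± 0.20, adjusted p = 0.012), a call lost without OE Zscan4 replicate 1 (-0.50) or OE control replicate 1 (-0.50) and under DESeq2. In the knockdown Dkkl1 libraries overlapped.

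Notum, an enzyme that removes the lipid from Wnt proteins, was lower in KD Zscan4 and higher in OE Zscan4 cells than in their controls. It had 199 and 237 normalised reads in KD Zscan4 libraries, against 392 and 389 in KD control libraries (log2 fold change -0.84 ± 0.11, adjusted p = 9.5e-05). In the overexpression Notum had 162 and 133 in OE Zscan4 libraries, against 87.7 and 77.3 in OE control libraries (0.83 ± 0.17, adjusted p = 0.00075). Genes on the opposite strand, Notumos and Myadml2os, cover 38.1% of the Notum exon bases. Whether the counting used strand is not given in the sources used here, so reads of Notum and these genes cannot be told apart. Notumos had 81.2 and 70.9 normalised reads in KD Zscan4 libraries, against 119 and 135 in KD control libraries, and 44.7 and 52.6 in OE Zscan4 libraries, against 24.8 and 20.6 in OE control libraries, with the groups separate in both arms.

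The Sfrp genes encode secreted decoys that bind Wnt ligands. Sfrp1, which had the highest level per kilobase of the secreted or surface antagonists in every group, had 1529 and 1374 normalised reads in KD Zscan4 libraries, against 945 and 1007 in KD control libraries (log2 fold change 0.57 ± 0.07, adjusted p = 6.6e-05). Sfrp5 had 90.3 and 107 in KD Zscan4 libraries, against 55.5 and 68.5 in KD control libraries (0.66 ± 0.19, adjusted p = 0.018). Sfrp2 was lower, at 223 and 237 in KD Zscan4 libraries, against 330 and 284 in KD control libraries (-0.41 ± 0.11, adjusted p = 0.012). The family thus split within the knockdown. The Sfrp5 call was lost without KD control replicate 1 (0.51) or KD Zscan4 replicate 2 (0.54), the Sfrp2 call without KD control replicate 1 (-0.30), and DESeq2 called neither. In the overexpression the only Sfrp gene called was Sfrp4, with 218 and 225 normalised reads in OE Zscan4 libraries, against 134 and 159 in OE control libraries (0.60 ± 0.14, adjusted p = 0.0017). Sfrp4 in the knockdown was at 0.35 ± 0.13 with an adjusted p of 0.054. Gm26771, on the opposite strand, covers 16.1% of the Sfrp2 exon bases. Apcdd1, a membrane antagonist, was called in neither arm, and Dkk2 and Dkk4 were not analysed here.

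Inside the cell, Axin2, a scaffold of the β-catenin destruction complex and the most used read-out of the pathway, was lower than its control in both arms. It had 148 and 129 normalised reads in KD Zscan4 libraries, against 345 and 385 in KD control libraries, 38.0% of the control mean (log2 fold change -1.39 ± 0.12, adjusted p = 3.5e-06). In the overexpression Axin2 had 142 and 114 in OE Zscan4 libraries, against 174 and 172 in OE control libraries (-0.44 ± 0.15, adjusted p = 0.026). The second of these calls was lost without OE Zscan4 replicate 2 (-0.28), under DESeq2, and with the chromosome 11 median taken off. Axin1, its constitutive counterpart, fell slightly in the knockdown (-0.33 ± 0.07, adjusted p = 0.0020) and was not called in the overexpression (-0.12 ± 0.07). Nkd1, an inhibitor that binds Dishevelled, had 61.7 and 59.2 normalised reads in OE Zscan4 libraries, against 83 and 105 in OE control libraries (-0.62 ± 0.20, adjusted p = 0.018). Its knockdown values overlapped, at 75.1 and 105 in KD Zscan4 libraries and 94.9 and 62.9 in KD control libraries. The Nkd1 call was lost without OE Zscan4 replicate 1 (-0.65) or replicate 2 (-0.59), OE control replicate 2 (-0.45), and under DESeq2. Nkd2 was called in neither arm.

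Over the 8 libraries, centred on the mean of each arm, the genes whose log2 levels followed Axin2 most closely were Tufm, Gnpda1, Capn2, Nefl and Jup, with Pearson r of 0.994, 0.993, 0.992, 0.992 and 0.992. Among the members the closest were Wnt5a (0.986), Lrp5 (0.980), Fzd2 (0.973) and Axin1 (0.969). These r are a description, since all 8 libraries come from 4 groups and the KD control libraries lie apart from the rest for Axin2.

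**Figure D5:**
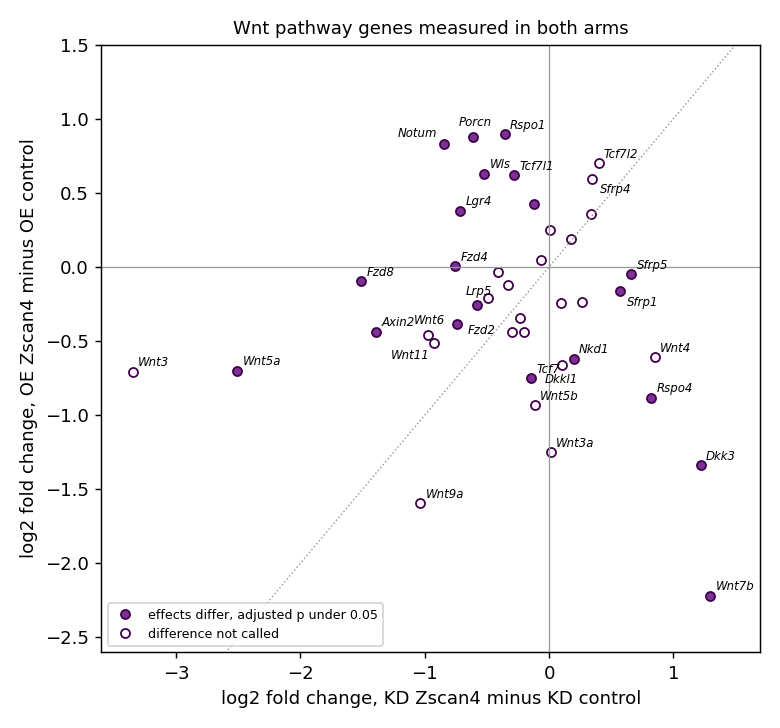
Log2 fold change in the overexpression (OE Zscan4 minus OE control, vertical) against that in the knockdown (KD Zscan4 minus KD control, horizontal) for the 42 members measured in both arms; filled points are members whose 2 fold changes differ by the limma test, and the dotted line marks equal values. Porcn, Notum, Wls and Lgr4 lie in the upper left, Wnt7b and Dkk3 in the lower right, and Axin2, Fzd2 and Wnt9a in the lower left.

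Set side by side, 7 of the 42 members measured in both arms were called in opposite directions, 5 of them lower in KD Zscan4 and higher in OE Zscan4 cells (Lgr4, Tcf7l1, Notum, Porcn and Wls) and 2 the reverse (Wnt7b and Dkk3). Of all 17409 genes measured in both arms 6.65% showed the first pattern and 5.67% the second. Another 6 members were called in the same direction, Fzd5 and Fzd7 higher and Axin2, Wnt9a, Fzd2 and Lrp5 lower in both arms, where all genes gave 3.88% and 3.60%. The difference between the effects was called for 20 of the 42, with 13 higher and 7 lower in the overexpression than in the knockdown. Over all genes 44.7% differed, 22.9% higher and 21.8% lower. Among the called differences the widest were those of Wnt7b (-3.51 ± 0.35, adjusted p = 9.0e-07) and Dkk3 (-2.56 ± 0.23, adjusted p = 3.1e-07), followed by Wnt5a (1.81 ± 0.58, adjusted p = 0.018). That of Wnt3, 2.64 ± 1.10, was not called (adjusted p = 0.061). The 10 members called in neither arm were Lgr6, Rspo4, Nkd2, Wnt3a, Wnt4, Fzd1, Fzd3, Fzd6, Lrp6 and Apcdd1. Their log2 fold changes ran from -0.49 (Fzd1) to 0.85 (Wnt4) in KD Zscan4 cells and from -1.25 (Wnt3a) to 0.25 (Fzd6) in OE Zscan4 cells.

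Genes outside the set give the surroundings of these changes. Of 60 other Wnt components, 54 were measured in the knockdown, where 12 rose and 18 fell with a median log2 fold change of -0.08, and 52 in the overexpression, where 10 rose and 13 fell with a median of -0.12. All genes gave 17.2% higher and 18.5% lower in the knockdown and 22.3% and 22.1% in the overexpression, which the overexpression counts are close to. Wif1, a secreted Wnt inhibitor, was at 1.90 and Rnf43, which removes Frizzled receptors from the surface, at 1.21 in KD Zscan4 cells, while Ror1, a receptor for Wnt5a, was at -1.33 and Shisa3, an inhibitor of Wnt receptor maturation, at -1.68. Levels were low: Wif1 had 10.1 and 14.6 normalised reads in KD Zscan4 libraries, against 0.90 and 5.62 in KD control libraries. Rnf43 had 29.4 and 24.3, against 15.2 and 7.86. Shisa3 had 8.12 and 7.77, against 20.6 and 37.1, and reached the minimum of 19 reads only through KD control cells. In OE Zscan4 cells the co-repressors Tle4 and Tle2 were at 0.94 and -1.34, the glypican Gpc4 at 1.15 and the planar polarity gene Prickle1 at -0.88. Tle2 was low, at 17.0 and 7.52 normalised reads in OE Zscan4 libraries, against 24.8 and 37.1 in OE control libraries. Of 28 genes known as β-catenin targets in ES cells or the early embryo, 26 were measured in the knockdown, with 13 lower, 5 higher and a median of -0.84. In the overexpression 22 were measured, with 10 higher, 3 lower and a median of 0.36. Gbx2, a homeobox gene of naive ES cells and the early brain, had 1111 and 1167 normalised reads in KD Zscan4 libraries, against 3751 and 3637 in KD control libraries, and 1263 and 1188 in OE Zscan4 libraries, against 259 and 307 in OE control libraries. The proto-oncogene Myc had a log2 fold change of -1.71 in KD Zscan4 and of 2.03 in OE Zscan4 cells. Sp5, a direct target and repressor of the pathway, was at -2.88 and its relative Sp8 at -2.68 in KD Zscan4 cells. In OE Zscan4 cells Sp5 was at -0.71 and not called, and Sp8 was not analysed there. Sp8 had 7.10 and 8.74 normalised reads in KD Zscan4 libraries. It is in the count of lower targets though it reached the minimum of 19 reads only through KD control cells. Msx1 was at 1.48 and Dusp6, an ERK phosphatase, at 1.25 in OE Zscan4 cells. The Msx1 value rests on 15.9 and 10.3 normalised reads in OE Zscan4 libraries, against 3.81 and 4.12 in OE control libraries. The 5 targets called higher in KD Zscan4 cells were Tnfrsf19 (0.69), Tbx3 (0.64), Cdx1 (0.64), Tfcp2l1 (0.62) and Nanog (0.35). The 3 called lower in OE Zscan4 cells were Cdx1 (-1.20), Ascl2 (-0.91) and Tfcp2l1 (-0.41). Many of these targets answer to other pathways too, and some are also on the lists of naive or neural markers.

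Markers of other cell types were looked at as well. In the knockdown 17.2% of all genes were called higher and 18.5% lower, and in the overexpression 22.3% and 22.1%. These shares stand beside the counts here and in the next paragraph. Of 13 primitive endoderm markers measured in the knockdown 12 were lower, with a summed level of 3176 to 3400 normalised reads in KD Zscan4 libraries, against 13386 to 13714 in KD control libraries. In the overexpression 9 of 12 were lower, at 3002 to 3113 in OE Zscan4 libraries, against 4066 to 4217 in OE control libraries. Among them Gata6, Sox17 and Cubn stood at log2 fold changes of -4.30, -4.43 and -5.83 in KD Zscan4 cells. Foxa2 was listed at 0 in 1 KD Zscan4 library, and Afp and Ttr were not analysed here. Sox17, at 9.13 and 5.82 normalised reads in KD Zscan4 libraries, and Foxa2, at 0 and 3.88, reached the minimum of 19 reads only through KD control cells. The count of lower endoderm markers in the knockdown thus includes genes measured only because they were high in KD control cells. Mesoderm and primitive streak markers were lower for 4 of 15 in the knockdown, summing to 271 to 328 in KD Zscan4 libraries, against 633 to 670 in KD control libraries. For 3 of 13 they were lower in the overexpression, close to the share of all genes. They summed to 289 to 298 in OE Zscan4 libraries, against 361 to 411 in OE control libraries. Neural markers summed to 7054 to 7229 in KD Zscan4 libraries, against 8684 to 8792 in KD control libraries (6 of 9 lower, 2 higher), and to 6793 to 6988 in OE Zscan4 libraries, against 3414 to 3505 in OE control libraries (5 of 8 higher, 2 lower). In the knockdown Gbx2 alone fell by more than the sum. It had 1111 and 1167 in KD Zscan4 libraries, against 3751 and 3637 in KD control libraries. In the overexpression Gbx2 and Tubb3 made up most of the rise. Tubb3 had 4519 and 4406 in OE Zscan4 libraries there, against 2148 and 2026 in OE control libraries. Fibroblast markers were higher for 4 of 9 and lower for 1 in the knockdown, summing to 14175 to 15189 in KD Zscan4 libraries, against 11696 to 12034 in KD control libraries, and lower for 4 of 8 and higher for 1 in the overexpression, at 10888 to 11075 in OE Zscan4 libraries, against 12677 to 12812 in OE control libraries. In the knockdown Fn1 alone rose by more than this sum. Fn1 had 11153 and 10464 in KD Zscan4 libraries, against 6159 and 6305 in KD control libraries. It lies on chromosome 1, whose genes were higher as a body in KD Zscan4 cells. Trophectoderm markers were split in the knockdown (2 higher and 3 lower of 9, at 2739 to 2825 in KD Zscan4 libraries, against 2268 to 2271 in KD control libraries) and lower for 4 of 8 in the overexpression (2360 to 2477 in OE Zscan4 libraries, against 2753 to 3074 in OE control libraries). The called genes of largest change in these 4 lists were Twist1 (-2.85), Sox3 (-2.19), Thy1 (0.91) and Esx1 (2.12) in KD Zscan4 cells, and Mesp1 (-2.52), Gbx2 (2.11), Pdgfrb (-1.98) and Elf5 (-1.76) in OE Zscan4 cells. Mesp1 and Elf5 were low throughout that arm, with OE control means of 16.5 and 13.0 normalised reads. Both reached the minimum of 19 reads only through OE control cells.

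Naive ES cell markers were present at high levels in all 8 libraries. They summed to 157511 to 162423 normalised reads in KD Zscan4 libraries, against 159766 to 160381 in KD control libraries, with 5 of 14 higher and 5 lower. In the overexpression they summed to 180785 to 181600 in OE Zscan4 libraries, against 136218 to 138721 in OE control libraries, with 10 of 14 higher and 1 lower. All 8 markers of 2-cell-like cells were lower in the knockdown, and all 7 measured were higher in the overexpression. Zscan4c, Zscan4d and Zscan4f are in both counts, and the design set their direction. Usp17lc, Gm4340, Gm21304 and Tcstv3 stood at -3.03, -2.93, -3.14 and -3.18 in KD Zscan4 cells. In OE Zscan4 cells they stood at 2.94, 3.85, 3.89 and 2.84. Zfp352 was at -3.01 in KD Zscan4 cells. Tcstv3 reached the minimum of 19 reads in the knockdown only through KD control cells. The part of these cell type markers in the changes of Wnt8a, Dkk1, Wnt3, Wnt5a and the other members was not tested.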

How the data were processed

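The authors deposited, for each arm, a gene table of signal values, that is normalised read counts. Per the submitters' processing notes, cutadapt, HISAT2, featureCounts and DESeq2 were used with build mm10, and versions and strand settings are not given in the sources used here. Multiplied back, 100% of the deposited values lay within 0.01 of whole reads. No row held fewer than 19 reads, so low genes had been left out. The labels name 11 cycles of PCR and no molecular identifiers.

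Columns were matched to samples by title. Ensembl IDs were matched to GENCODE vM21 (17913 of 17938 in the knockdown, 18259 of 18292 in the overexpression). Replicate libraries differed by more than counting noise (a chi-square of 2.94 to 4.96 per degree of freedom).

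limma 3.58.1 (R 4.3.3, limma-trend) was fitted to log2(value + 1) of all genes of a table, 2 against 2 libraries, two-sided, with Benjamini-Hochberg adjustment at 0.05; "called" means past this threshold. The difference between arms is a contrast over the 17409 shared genes. edgeR 4.0.16 on recovered reads called 6483 genes in the knockdown and 8185 in the overexpression, DESeq2 1.42.0 called 4125 and 5638. The scripts were tested on simulated data.

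Members and gene lists were chosen with earlier results of these data known. Members with a mean of at least 20 in a group, a call and a log2 fold change of at least 0.58 in size are given per library, as are Axin2, Nkd1, Tcf7, Tcf7l1, Tcf7l2, Porcn, Wls, Lrp5, Lrp6, Wnt3, Dkk1 and Fzd7. Of the 2 lists of pathway components and targets, up to 4 called genes of largest change per arm are named. Targets called higher in the knockdown or lower in the overexpression are named as well. Marker lists are given by counts and summed levels, with some of their leading genes.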

Additional observations from a re-analysis of the deposited data

Results flagged for a closer look

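For 20 of the 42 members measured in both arms the log2 fold change in the overexpression differed from that in the knockdown. The test was a limma contrast over all 8 libraries, adjusted over 17409 genes. It was called for 44.7% of all these genes, a share close to that of the members. The differences below are overexpression minus knockdown, so a positive value means a higher fold change with Zscan4c overexpressed. They were 1.10 for Lgr4, 1.25 for Rspo1, -1.71 for Rspo4, -0.61 for Tcf7, 0.90 for Tcf7l1, 0.95 for Axin2 and -0.82 for Nkd1. Among ligands and secretion genes they were 1.81 for Wnt5a, -3.51 for Wnt7b, 1.49 for Porcn and 1.15 for Wls. Receptors gave 0.55 for Fzd10, 0.35 for Fzd2, 0.76 for Fzd4, 1.42 for Fzd8 and 0.32 for Lrp5. Secreted antagonists gave -2.56 for Dkk3, 1.67 for Notum, -0.74 for Sfrp1 and -0.71 for Sfrp5. Of the 20, 12 kept the call under all 17 alternatives: Axin2, Tcf7, Wnt7b, Wls, Rspo1, Dkk3, Porcn, Sfrp1, Notum, Lgr4, Tcf7l1 and Fzd10. Tcf7, on chromosome 11, kept it at a smaller size with chromosome medians removed, at -0.27 against -0.61. Rspo4 without OE Zscan4 replicate 2 was at -0.88 and not called. The call was kept under 5 of 17 alternatives for Fzd2, 8 for Lrp5 and for Nkd1, 9 for Sfrp5, 10 for Fzd4, 11 for Rspo4, 14 for Wnt5a and 15 for Fzd8.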

How the results depend on the processing

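DESeq2 called 12 members lower in the knockdown, 4 lower in the overexpression, 13 with different effects, 6 opposite and 1 in the same direction in both arms, and 4125 genes in the knockdown. Without OE Zscan4 replicate 2, 5 members were lower in the overexpression and 2 went the same way in both arms. With chromosome medians removed 9 were opposite, 2 went the same way, and Fzd7 (-0.38) and Fzd5 (-0.23) turned in the knockdown. Fzd5, Fzd7 and Sfrp1 were new among those 9, and Wls was no longer among them. In that setting the difference between arms became called for Fzd5 (0.63), Fzd7 (0.62), Wnt3 (2.98) and Wnt6 (1.12). It was no longer called for Fzd4 (0.68) and Lrp5 (0.24). Leaving out 1 library at a time gave 5 members higher and 13 to 18 lower in the knockdown (4416 to 6087 genes), 8 to 11 higher and 5 to 12 lower in the overexpression (5964 to 7975 genes), and 14 to 19 members with different effects (6619 to 7397 genes), with 5 to 7 opposite and 2 to 6 in the same direction. Such fits leave 1 library in a group and assume that it varies like the others. Counts of opposite and same directions were chosen after seeing the data. Under the alternatives, here and in the next paragraph, the matching shares of all genes were not computed, so these counts describe the members alone. Of the called members, 14 of 25 in the knockdown and 12 of 22 in the overexpression kept the call under every alternative run.

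Replicates of a number did not deviate together over all genes (r = -0.0591 over 14554 genes in the knockdown, -0.0389 over 14783 in the overexpression). A value of this kind cannot show whether they shared a batch or culture that touched some genes. With the replicate block, 7 members were higher and 19 lower in the knockdown (6924 genes), 11 higher and 12 lower in the overexpression (8188 genes), 17 differed between arms (7388 genes), 8 were opposite and 6 went the same way.

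Among called members depth limits Wnt3, Dkk1 and Wnt5a most, with 10, 7 and 10 reads in the KD Zscan4 group.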
